A study of Mus musculus with 24 samples.

Results

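Aminoacyl-tRNA synthetases, the enzymes that charge each transfer RNA with its amino acid, were examined in mouse blastocysts whose father or mother had been made obese by diet. Members were taken by gene symbol: every symbol made of a single capital letter followed by ars, ars1 or ars2, together with Eprs, Farsa, Farsb, Ears2 and Tarsl2 and the scaffold genes Aimp1 and Aimp2. The rule found 37 genes among the 19938 genes named by a probe set of their own. They comprise 17 cytosolic enzymes, 16 mitochondrial enzymes, 2 enzymes that serve both compartments (Gars and Kars) and 2 scaffolds. Of the 37 genes, 34 were bright enough to be tested, and the untested ones were the cytosolic Tarsl2 and the mitochondrial Pars2 and Yars2. The probe set of Aars is shared with Exosc6 and was not used.

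The samples were 24 pools of NMRI mouse blastocysts, an outbred stock, each hybridised to 1 Affymetrix array. Each pool joined the lysates of 3 embryos of 1 sex and 1 mother, collected on day 3.5 after mating. Obese parents had been kept on a high-fat diet and lean parents on a control diet for 9 weeks from 3 weeks of age and were mated at 12 weeks, when all received control diet. The 6 groups of 4 arrays were pools of an obese father and a lean mother, of an obese mother and a lean father, and of lean parents, each in male and in female embryos. The cohorts held 7 animals on the high-fat diet and 14 on the control diet. The labels do not say which parents each pool came from, so pools may share a parent, and p-values measure the spread between pools. Comparisons with lean parents in the same sex use the same 4 lean-parent arrays, so obese-father and obese-mother results of 1 sex share their controls.

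Each cytosolic synthetase attaches 1 amino acid to its transfer RNAs for translation on cytosolic ribosomes, and Eprs carries the glutamate and proline enzymes in 1 protein. Separate nuclear genes, mostly ending in 2, encode the enzymes imported into mitochondria, where they charge mitochondrial transfer RNAs for the translation of respiratory chain subunits. Several cytosolic enzymes (those encoded by Eprs, Iars, Lars, Mars1, Qars, Rars and Kars) sit in a multisynthetase complex that the scaffold proteins of Aimp1 and Aimp2 hold together. Many cytosolic synthetase genes are known targets of the amino acid response, in which ATF4 and its partners bind a composite promoter element when amino acids are short. NRF1 is a transcription factor known for many nuclear genes of mitochondrial proteins.

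RefSeq promoter windows (250 bases before to 50 after the start of the gene, GRCm38.p6) were found for 28 of the 37 members. The composite amino acid response element TGATGNAA, on either strand, lay in the window of 3 of 10 cytosolic enzymes, 1 of 2 enzymes of both compartments, 0 of 14 mitochondrial enzymes and 0 of 2 scaffolds, against 3.97% of 32851 windows in the table. Members were counted by gene, with a match in any window of the gene, and the background was counted by window, so these shares differ in unit. The 4 sites are shown because Gars, Tars and Iars recur below among the genes with 1 very high pool while Yars does not. Genes whose window lacks the element, such as Qars and Sars, recur there as well. Each is printed 5′ to 3′ along the strand of its gene, with the element in capitals.
Yars (tyrosine), chr4:129189895-129189924, plus strand: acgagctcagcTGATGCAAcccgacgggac
Gars (glycine), chr6:55037960-55037989, plus strand: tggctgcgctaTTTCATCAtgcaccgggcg
Iars (isoleucine), chr13:49682126-49682155, plus strand: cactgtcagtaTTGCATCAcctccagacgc
Tars (threonine), chr15:11399655-11399684, minus strand: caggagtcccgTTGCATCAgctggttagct
In Yars the element reads along the gene, from base 4 after the start, and in the other 3 genes it lies in the opposite direction, from base -30 in Gars, base 8 in Iars and base -15 in Tars. A match describes the letters of the window and is no evidence of binding.

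The NRF1 motif, GCGC followed by any base and TGCGC, on either strand, lay in the windows of 2 of 14 mitochondrial, 2 of 10 cytosolic, 1 of 2 dual-compartment and 0 of 2 scaffold genes, against 4.6% of all windows. Here too members were counted by gene and the background by window. The 2 mitochondrial sites are shown because Mars2 is the mitochondrial gene whose obese-father and lean-parent male pools did not overlap, and the site of Kars stands beside them.
Mars2 (methionine), chr1:55237169-55237198, plus strand: ccgtccagctGCGCACGCGCcctttcccgt
Iars2 (isoleucine), chr1:185329374-185329403, minus strand: ccgccccggaGCGCGTGCGCagttcctcgc
Kars (lysine), chr8:112011384-112011413, minus strand: gcccagcactGCGCCTGCGCagcgagagtc
Farsb and Tars were the cytosolic genes with this motif. Tars was the single member that held both motifs.

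All values are log2 intensities, and differences are log2 differences between group means. The median of all values was 2.56. The standard deviation of all values on an array, called its signal spread here, ran from 1.27 to 1.81 and was widest on obese-father female array 22 and next widest on obese-father male array 12 (1.72). Markers within each list were uneven, and levels of different probe sets are not compared. Of the embryo markers, Krt8 read 6.13 or more and Nanog 4.08 or more on every array, Pou5f1 ran from 2.65 to 8.29, and Elf5, Esrrb and Sox2 reached down to 1.79, 2.10 and 2.36. Of the cumulus and granulosa markers, Amh ran from 3.47 to 4.45 and Foxl2 from 3.17 to 4.50, while Fshr stayed at or below 2.58. Of the leukocyte markers, Lyz2, Cd14 and Ptprc reached 2.22, 2.31 and 2.50, and Cd68 and Itgam 3.16 and 3.26. The uterine and oviduct marker Wfdc2 ran from 3.38 to 4.36 and Muc1 from 1.52 to 2.31. The sperm marker Prm1 ran from 3.67 to 4.45 and Akap4 from 1.02 to 1.97. In pooled lysates, fewer cells of a type and less RNA per cell cannot be told apart.

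The fit with limma called 0 of the 34 tested members at a Benjamini-Hochberg adjusted p under 0.05, in each of the 11 comparisons. The share of all 13311 tested genes called was as low, with 1 gene (0.00751%) for an obese father against lean parents in males, 1 gene (0.00751%) for an obese mother against an obese father in males, 1 gene (0.00751%) for males against females of obese fathers, and 0 genes (0%) in the other 8. Values below are therefore a description of these pools, and no member is said to have changed. Some cytosolic genes, such as Rars, Lars and Nars, varied widely between pools of a group, while others, such as Cars and Farsa, and most mitochondrial genes did not.

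**Figure D1:**
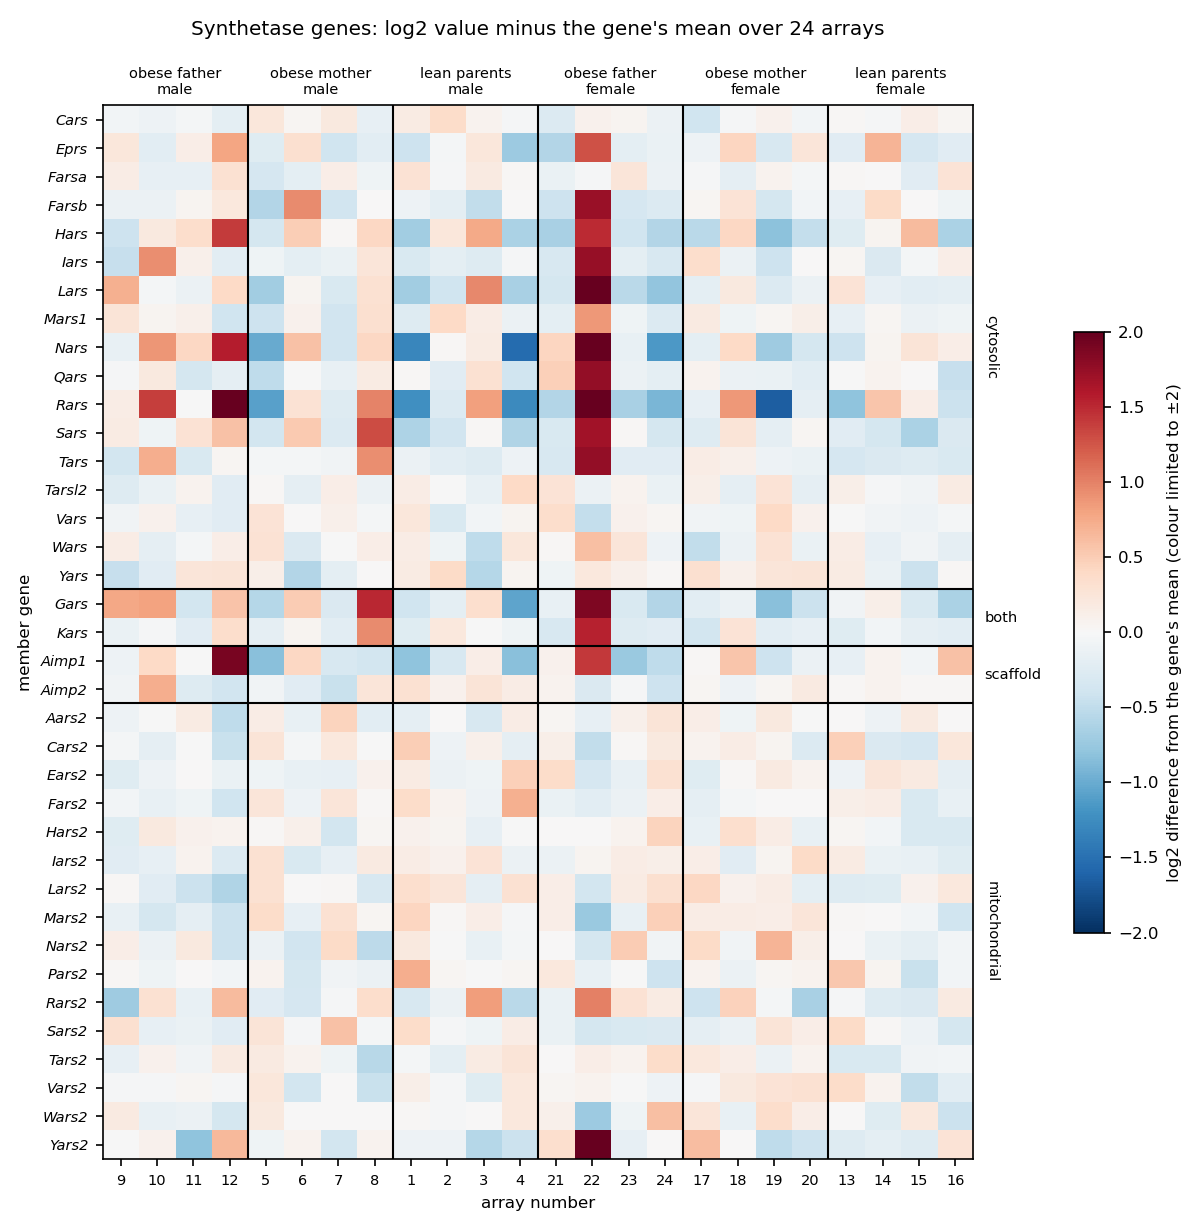
Heat map of the 37 member genes (rows, by class) over the 24 arrays (columns, by group), coloured by the log2 value minus the gene's mean over all arrays, with the colour limited to ±2. Array 22 of the obese-father female pools stands out in 12 of 17 cytosolic genes and in Gars and Kars, while most mitochondrial genes stay near their mean.

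In male embryos of obese fathers, the median differences of cytosolic and mitochondrial enzymes from lean parents lay on opposite sides of 0, with no member called. The median log2 difference was 0.20 over the 17 cytosolic genes (10 above 0, range -0.24 to 1.39) and -0.16 over the 16 mitochondrial genes (3 above 0, range -0.48 to 0.28), beside -0.11 over all genes tested, of which 33.3% lay above 0. Of the 7 complex enzymes, 5 lay above 0 (median 0.29). The cytosolic median was -0.09 with the signal spread as a covariate, where the mitochondrial median was -0.06, and it was 0.01 without obese-father array 10, 0.11 without lean-parent array 3 and 0.13 without obese-father array 12. The mitochondrial median was -0.07 without lean-parent array 1. At an unadjusted p under 0.05, 2 tested members were higher (Nars and Aimp1) and 3 lower (Fars2, Lars2 and Mars2), beside 4.3% higher and 10.4% lower among all genes tested.

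Nars, which charges transfer RNA with asparagine, had log2 values of 5.19, 6.21, 5.75 and 6.90 in obese-father male pools, against 4.04, 5.36, 5.49 and 3.79 in lean-parent male pools. The upper 3 obese-father pools lay above every lean-parent pool, and the lowest overlapped with them. The means were 6.01 ± 0.73 in obese-father male pools and 4.67 ± 0.88 in lean-parent male pools (SD, n = 4 each), a difference of 1.34 (SE 0.53, adjusted p = 0.316). Rars, the arginine enzyme and part of the complex, read 4.89, 6.13, 4.74 and 6.82 in obese-father male pools, against 3.52, 4.48, 5.56 and 3.47 in lean-parent male pools. Only 2 obese-father pools, arrays 10 and 12, exceeded the highest lean-parent pool, and the groups overlapped. The means were 5.65 ± 1.0 in obese-father male pools and 4.26 ± 0.99 in lean-parent male pools (SD, n = 4 each), a difference of 1.39 (SE 0.67, adjusted p = 0.339). Cars, the cysteine enzyme, ran the other way with little spread, at 3.89, 3.84, 3.90 and 3.74 in obese-father male pools, against 4.10, 4.30, 4.02 and 3.92 in lean-parent male pools. Its groups did not overlap, with every obese-father pool lower, and the difference was -0.24 (SE 0.12, adjusted p = 0.347). Among all genes tested, 6.63% had non-overlapping groups with obese-father pools lower and 1.91% with them higher. The other cytosolic genes spanned differences from -0.24 for Tarsl2 to 0.64 for Sars.

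Among the mitochondrial enzymes, Lars2, which charges leucine, read 2.46, 2.22, 2.01 and 1.83 in obese-father male pools, against 2.78, 2.68, 2.26 and 2.74 in lean-parent male pools. The upper 3 lean-parent pools lay above every obese-father pool, while lean-parent array 3 lay among them. The difference was -0.48 (SE 0.18, adjusted p = 0.316). Lars2 was above the median of all values on 10 of 24 arrays. Fars2, the phenylalanine enzyme, read 2.68, 2.59, 2.66 and 2.34 in obese-father male pools, against 3.11, 2.82, 2.64 and 3.46 in lean-parent male pools, and again lean-parent array 3 alone fell inside the obese-father range. Its difference was -0.44 (SE 0.15, adjusted p = 0.316). Mars2, the methionine enzyme whose NRF1 motif is printed above, read 3.85, 3.63, 3.82 and 3.56 in obese-father male pools, against 4.43, 4.01, 4.12 and 3.96 in lean-parent male pools. Its groups did not overlap, with every obese-father pool lower, and the difference was -0.42 (SE 0.19, adjusted p = 0.326). The remaining 13 mitochondrial genes lay between -0.25 (Iars2 and Cars2) and 0.28 (Yars2, untested).

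The enzymes of both compartments differed from each other. Gars, the glycine enzyme, read 5.25, 5.27, 4.10 and 5.04 in obese-father male pools, against 4.07, 4.28, 4.81 and 3.41 in lean-parent male pools. Obese-father arrays 9, 10 and 12 were above every lean-parent pool and array 11 was not, with a difference of 0.77 (SE 0.46, adjusted p = 0.389). Kars, the lysine enzyme, read 2.83, 2.95, 2.73 and 3.32 in obese-father male pools, against 2.73, 3.18, 2.96 and 2.88 in lean-parent male pools, and the groups overlapped throughout apart from the high array 12. Its difference was 0.02 (SE 0.31, adjusted p = 0.976), and it lay below 0 without array 12 (-0.10) or without lean-parent array 1 (-0.05). The scaffold Aimp1 read 3.60, 4.09, 3.69 and 5.59 in obese-father male pools, against 2.89, 3.37, 3.82 and 2.86 in lean-parent male pools. Array 12 was the highest of all 24 arrays for this gene, 2 obese-father pools exceeded every lean-parent pool, and the difference was 1.0 (SE 0.43, adjusted p = 0.316), or 0.555 without array 12. The scaffold Aimp2 read 3.75, 4.54, 3.55 and 3.43 in obese-father male pools, against 4.11, 3.91, 4.07 and 3.96 in lean-parent male pools, where 3 obese-father pools were below every lean-parent pool and array 10 was above them all. Its difference was -0.19 (SE 0.18, adjusted p = 0.569).

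Other measures also differed in mean between these male groups, with ranges over the arrays that overlapped. The signal spread was 1.56 ± 0.11 in obese-father male pools and 1.38 ± 0.12 in lean-parent male pools (SD, n = 4 each, two-sided exact permutation p = 0.114). Of the 9 trophectoderm markers, 8 lay above 0 (median difference 0.42), and their mean level was 4.81 to 5.64 in obese-father male pools and 4.00 to 4.83 in lean-parent male pools. Of the 7 inner cell mass markers, 4 lay above 0 (median 0.29). Of the 12 cumulus and granulosa markers, 11 lay below 0 (median -0.33), and their mean level was 2.47 to 2.76 in obese-father male pools and 2.72 to 3.10 in lean-parent male pools. The other lists of cells outside the embryo lay mostly below 0 too. These were 5 of 6 uterine and oviduct, 5 of 6 sperm and 4 of 5 blood and leukocyte markers. Among all genes tested, 33.3% lay above 0 (median -0.11). The fit with the signal spread as a covariate gave a cytosolic minus mitochondrial median of -0.025. The part of the marker lists in the member values was not tested.

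**Figure D2:**
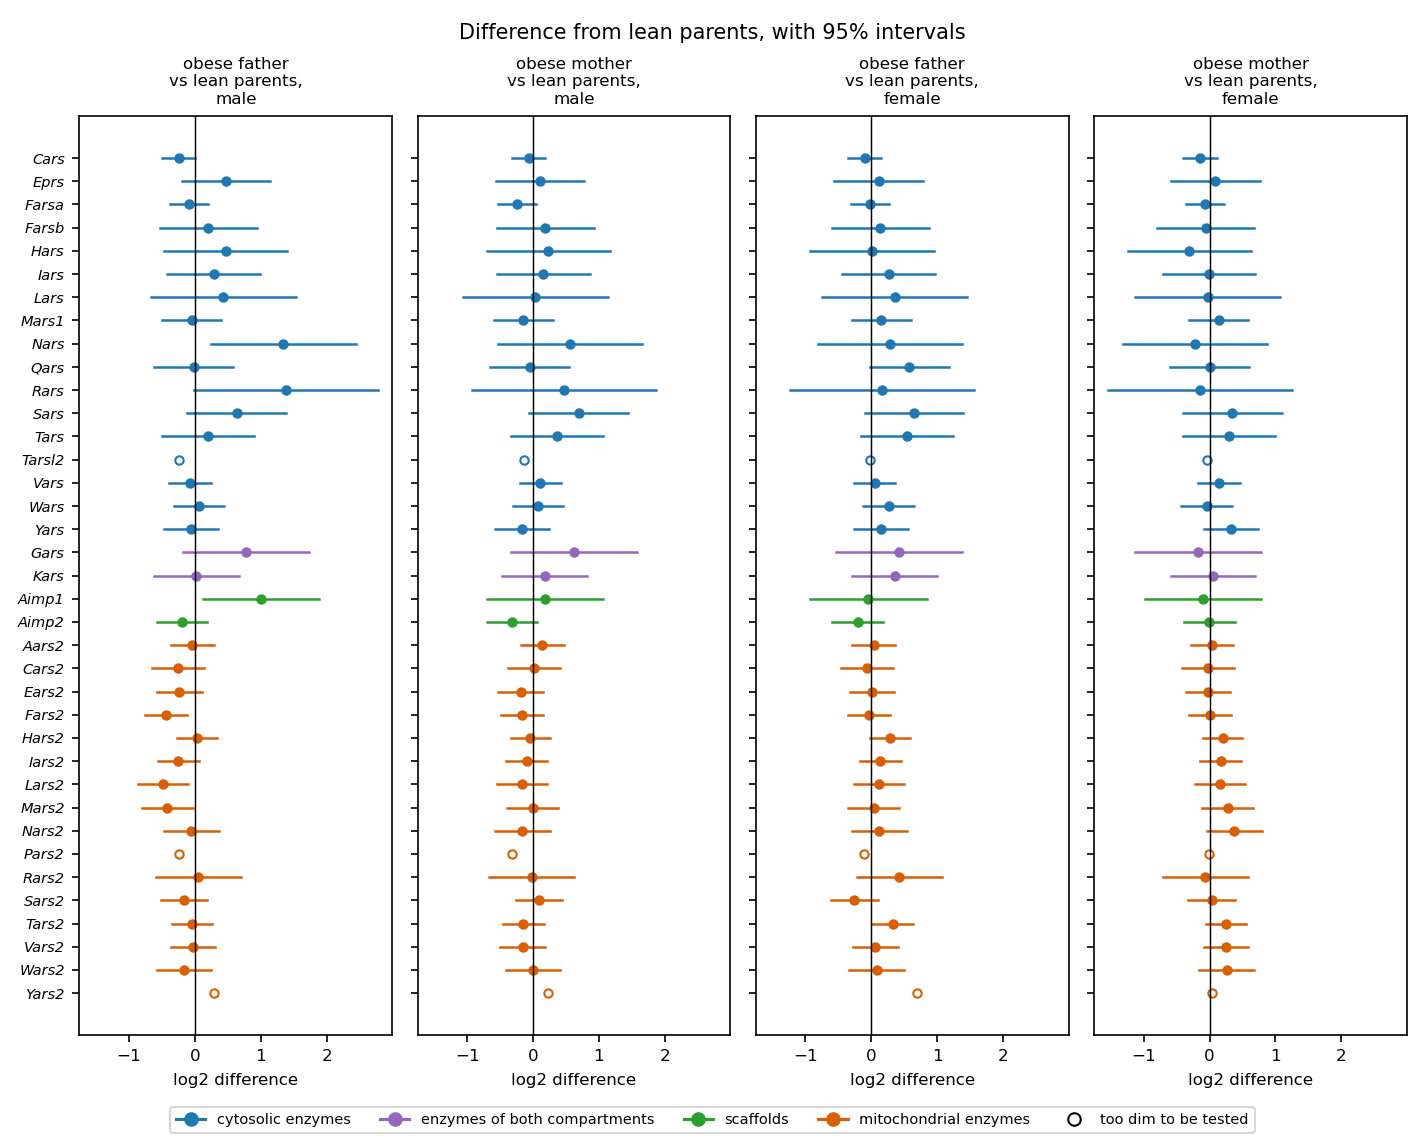
Log2 difference of each member from lean parents (points, horizontal axis) with its 95% interval from the fit, for each obese parent and embryo sex, coloured by class, with open points for the 3 genes too dim to be tested. Intervals of Nars, Rars, Lars and Hars are wide in every panel, and those of Cars, Farsa and most mitochondrial genes are narrow.

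In female embryos of obese fathers, the median differences of both classes from lean parents were above 0, and the sign of the cytosolic one rested on array 22. The median log2 difference was 0.15 over the cytosolic genes (14 of 17 above 0) and 0.07 over the mitochondrial genes (12 of 16 above 0), beside 0.02 over all genes tested, of which 54.9% lay above 0. All 7 complex enzymes lay above 0 (median 0.26). Without array 22 the cytosolic median was -0.11 and the mitochondrial median 0.16, and with array weights the cytosolic median was -0.07. At an unadjusted p under 0.05, 1 tested member was higher (Tars2) and 0 lower, beside 1.95% higher and 0.886% lower among all genes tested.

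Tars2, the mitochondrial threonine enzyme, read 2.70, 2.82, 2.76 and 3.06 in obese-father female pools, against 2.39, 2.39, 2.62 and 2.64 in lean-parent female pools. Its groups did not overlap, as for 0.811% of all genes tested with obese-father pools higher, and the difference was 0.32 (SE 0.15, adjusted p = 0.9997). Hars2, the mitochondrial histidine enzyme, read 2.48, 2.48, 2.54 and 2.92 in obese-father female pools, against 2.51, 2.42, 2.17 and 2.16 in lean-parent female pools. Array 24 was far above the rest of its group, the groups overlapped, and the difference was 0.29 (SE 0.14, adjusted p = 0.9997). Hars2 was dim, above the median of all values on 5 of 24 arrays. Among cytosolic genes, Qars, the glutamine enzyme of the complex, read 3.40, 4.68, 2.80 and 2.72 in obese-father female pools, against 2.91, 2.99, 2.93 and 2.46 in lean-parent female pools. Arrays 21 and 22 were above every lean-parent pool, 22 by far, and the difference was 0.58 (SE 0.29, adjusted p = 0.9997), or 0.15 without array 22. Sars, the serine enzyme, read 4.01, 6.0, 4.34 and 3.97 in obese-father female pools, against 4.08, 3.97, 3.68 and 4.02 in lean-parent female pools. Arrays 22 and 23 lay above every lean-parent pool and the difference was 0.65 (SE 0.36, adjusted p = 0.9997), or 0.17 without array 22.

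Gars in these females read 4.32, 6.33, 4.16 and 3.89 in obese-father female pools, against 4.41, 4.58, 4.17 and 3.84 in lean-parent female pools, and array 22 alone left the lean-parent range. Kars read 2.65, 4.51, 2.70 and 2.74 in obese-father female pools, against 2.72, 2.92, 2.79 and 2.75 in lean-parent female pools, where array 22 was high, 2 obese-father pools lay below every lean-parent pool and 1 lay among them. The differences were 0.43 (SE 0.46, adjusted p = 0.9997) for Gars and 0.35 (SE 0.31, adjusted p = 0.9997) for Kars, and without array 22 they were -0.12 and -0.10. Aimp1 read 3.78, 5.11, 2.95 and 3.19 in obese-father female pools, against 3.53, 3.76, 3.64 and 4.28 in lean-parent female pools, with array 22 highest and arrays 23 and 24 lowest. Aimp2 read 3.88, 3.52, 3.78 and 3.40 in obese-father female pools, against 3.84, 3.89, 3.84 and 3.84 in lean-parent female pools, where 3 obese-father pools lay below every lean-parent pool. The scaffold differences were -0.04 (SE 0.43, adjusted p = 0.9997) for Aimp1 and -0.21 (SE 0.18, adjusted p = 0.9997) for Aimp2.

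In male embryos of obese mothers, the cytosolic median difference from lean parents was 0.11 (11 of 17 above 0) and the mitochondrial median -0.07 (4 of 16 above 0), beside -0.01 over all genes tested, of which 46.1% lay above 0. The cytosolic median was -0.03 with the signal spread as a covariate and -0.03 without obese-mother array 6. No tested member reached an unadjusted p under 0.05 (0 of 34), beside 1.7% of all genes tested. Sars read 3.96, 4.83, 4.04 and 5.62 in obese-mother male pools, against 3.69, 3.94, 4.34 and 3.71 in lean-parent male pools. Arrays 6 and 8 exceeded every lean-parent pool, the other obese-mother pools did not, and the difference was 0.69 (SE 0.36, adjusted p = 0.9998), or 0.357 without array 8. Farsa, a subunit of the phenylalanine enzyme, read 2.64, 2.78, 3.10 and 2.90 in obese-mother male pools, against 3.27, 2.94, 3.16 and 2.99 in lean-parent male pools, with 3 obese-mother pools below every lean-parent pool and a difference of -0.24 (SE 0.14, adjusted p = 0.9998). Tars read 3.12, 3.11, 3.08 and 4.08 in obese-mother male pools, against 3.04, 2.94, 2.90 and 3.06 in lean-parent male pools. These groups did not overlap, as for 0.548% of all genes tested with obese-mother pools higher, yet 3 of the obese-mother values were close to the lean-parent ones and the difference was 0.37 (SE 0.34, adjusted p = 0.9998).

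Of the mitochondrial enzymes in these males, Ears2, for glutamate, read 3.07, 2.99, 2.99 and 3.24 in obese-mother male pools, against 3.32, 3.04, 3.06 and 3.63 in lean-parent male pools. Fars2 read 2.98, 2.64, 2.98 and 2.76 in obese-mother male pools, against 3.11, 2.82, 2.64 and 3.46 in lean-parent male pools. In both genes the 2 highest values were lean-parent pools and the rest overlapped, with differences of -0.19 (SE 0.16, adjusted p = 0.9998) for Ears2 and -0.16 (SE 0.15, adjusted p = 0.9998) for Fars2. Gars read 3.90, 4.98, 4.18 and 5.98 in obese-mother male pools, against 4.07, 4.28, 4.81 and 3.41 in lean-parent male pools. Arrays 6 and 8 were above every lean-parent pool, and the difference was 0.62 (SE 0.46, adjusted p = 0.9998), or 0.213 without array 8. Kars read 2.78, 3.03, 2.75 and 3.91 in obese-mother male pools, against 2.73, 3.18, 2.96 and 2.88 in lean-parent male pools, with array 8 alone outside the lean-parent range and a difference of 0.18 (SE 0.31, adjusted p = 0.9998), or -0.08 without that array. Aimp1 read 2.86, 4.10, 3.37 and 3.33 in obese-mother male pools, against 2.89, 3.37, 3.82 and 2.86 in lean-parent male pools, an overlap in which array 6 was the highest and the difference was 0.18 (SE 0.43, adjusted p = 0.9998). Aimp2 read 3.75, 3.59, 3.37 and 4.06 in obese-mother male pools, against 4.11, 3.91, 4.07 and 3.96 in lean-parent male pools, with 3 obese-mother pools below every lean-parent pool and a difference of -0.32 (SE 0.18, adjusted p = 0.9998).

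In female embryos of obese mothers, the mitochondrial median difference was 0.10 (12 of 16 above 0) and the cytosolic median -0.03 (7 of 17 above 0), beside 0.05 over all genes tested, of which 61.7% lay above 0. The cytosolic median was 0.16 with the signal spread as a covariate and ran from -0.05 to 0.06 when single arrays were left out. Again 0 of 34 tested members reached an unadjusted p under 0.05, beside 2.19% of all genes tested. Nars2, the mitochondrial asparagine enzyme, was dim, above the median of all values on 4 of 24 arrays, the fewest that the filter allows. It read 2.58, 2.12, 2.87 and 2.31 in obese-mother female pools, against 2.19, 2.05, 1.99 and 2.13 in lean-parent female pools, with 3 obese-mother pools above every lean-parent pool and a difference of 0.38 (SE 0.20, adjusted p = 0.999). Tars2 read 2.91, 2.82, 2.57 and 2.76 in obese-mother female pools, against 2.39, 2.39, 2.62 and 2.64 in lean-parent female pools, again with 3 of 4 above, and a difference of 0.25 (SE 0.15, adjusted p = 0.999). Yars, whose response element is printed above, read 4.27, 4.05, 4.19 and 4.19 in obese-mother female pools, against 4.10, 3.82, 3.52 and 3.97 in lean-parent female pools. Its upper 3 obese-mother pools exceeded every lean-parent pool and the difference was 0.33 (SE 0.20, adjusted p = 0.999). Cars read 3.54, 3.91, 4.03 and 3.88 in obese-mother female pools, against 3.97, 3.91, 4.07 and 3.98 in lean-parent female pools, where array 17 was the lowest and the groups overlapped, with a difference of -0.14 (SE 0.12, adjusted p = 0.999).

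Non-overlapping groups were seen in Tars and Mars2, both higher with an obese mother, as for 1.89% of all genes tested. Tars read 3.30, 3.26, 3.06 and 3.02 in obese-mother female pools, against 2.82, 2.87, 2.90 and 2.85 in lean-parent female pools, a difference of 0.30 (SE 0.34, adjusted p = 0.999). The obese-mother pools of Tars lay above all lean-parent pools of their sex in both sexes, as for 0.015% of all genes tested (2 of 13311), a pattern looked up after its values were seen. Mars2 read 4.15, 4.13, 4.13 and 4.24 in obese-mother female pools, against 4.01, 4.00, 3.94 and 3.59 in lean-parent female pools, a difference of 0.28 (SE 0.19, adjusted p = 0.999). The groups of the dual enzymes and scaffolds overlapped. Gars read 4.27, 4.35, 3.64 and 4.04 in obese-mother female pools, against 4.41, 4.58, 4.17 and 3.84 in lean-parent female pools, and Kars 2.60, 3.23, 2.75 and 2.80 in obese-mother female pools, against 2.72, 2.92, 2.79 and 2.75 in lean-parent female pools. Aimp1 read 3.71, 4.24, 3.28 and 3.58 in obese-mother female pools, against 3.53, 3.76, 3.64 and 4.28 in lean-parent female pools. Aimp2 read 3.85, 3.72, 3.84 and 3.99 in obese-mother female pools, against 3.84, 3.89, 3.84 and 3.84 in lean-parent female pools. Array 19 was the lowest obese-mother female pool for Gars and Aimp1, and array 18 the highest for Gars, Kars and Aimp1. Differences were -0.18 (SE 0.46, adjusted p = 0.999) for Gars, 0.05 (SE 0.31, adjusted p = 0.999) for Kars, -0.10 (SE 0.43, adjusted p = 0.999) for Aimp1 and -0.000388 (SE 0.18, adjusted p = 0.999) for Aimp2.

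**Figure D3:**
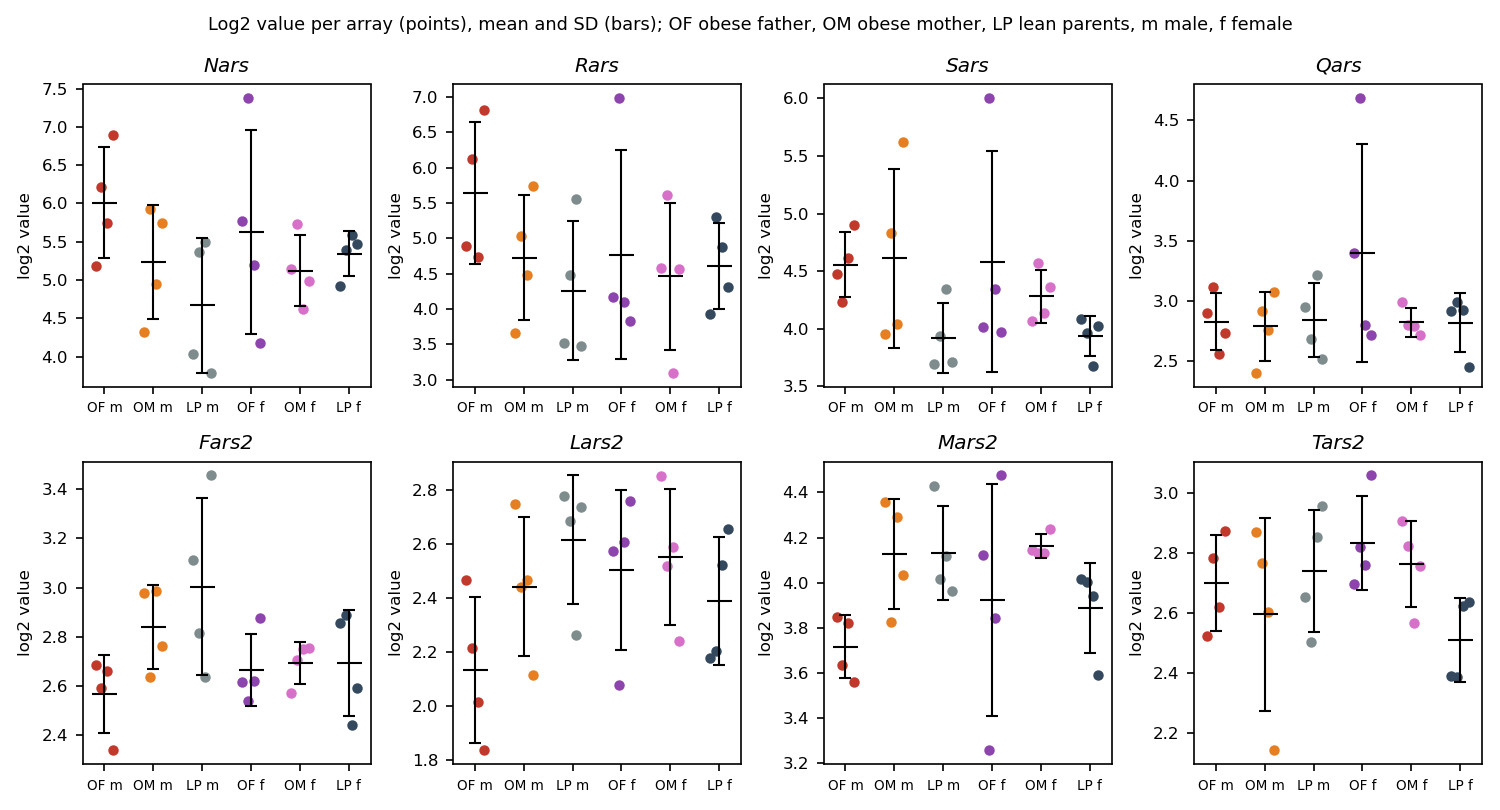
Log2 value per array (points) with group mean and SD (bars) for 4 cytosolic genes (top) and 4 mitochondrial genes (bottom), in the order obese father, obese mother and lean parents for males and then females. The vertical axes differ between panels, and the highest point of Nars, Rars, Sars and Qars is obese-father female array 22.

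The same amino acid could be followed in both compartments for 14 pairs of genes, with Fars2 paired with both Farsa and Farsb. In male embryos of obese fathers the cytosolic difference exceeded the mitochondrial one in 12 of 14 pairs (median of the difference 0.40), the exceptions being Yars with Yars2 and Vars with Vars2. The widest gaps were 1.39 for Nars over Nars2, 1.33 for Rars over Rars2 and 0.91 for Lars over Lars2. In males of obese mothers the count was 10 of 14 (median 0.26), and these 2 counts share the lean-parent male arrays. In females it was 9 of 14 for obese fathers (median 0.12) and 3 of 14 for obese mothers (median -0.12). Between lean-parent males and lean-parent females, with no obese parent, it was 2 of 14 (median -0.17), and these lean-parent pools are the controls of the counts above. Pairs share arrays and are not replicates, so the counts carry no test. With the signal spread as a covariate, the cytosolic minus mitochondrial median of the classes in obese-father males was -0.025. The pair counts were not repeated with that covariate.

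**Figure D4:**
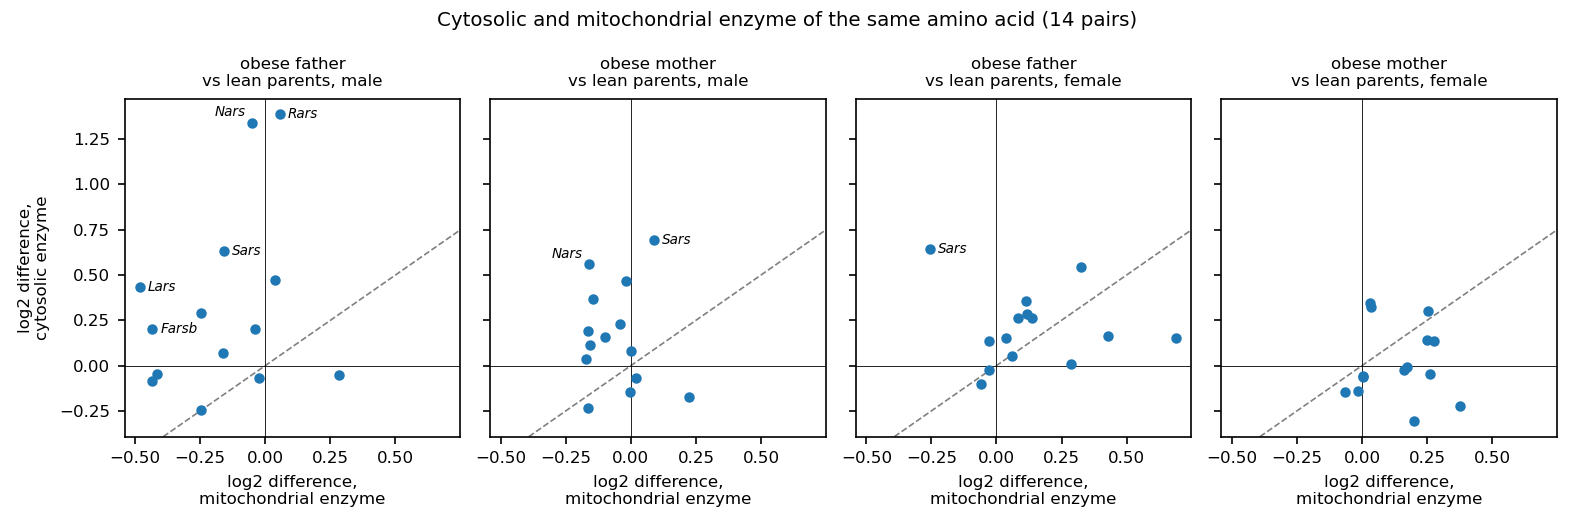
Log2 difference from lean parents of the cytosolic enzyme (vertical axis) against that of the mitochondrial enzyme for the same amino acid (horizontal axis), for 14 pairs in each comparison, with the dashed line marking equal differences. Points lie above the line for 12 pairs in obese-father males and for 3 pairs in obese-mother females.

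Between the obese parents, male pools of obese mothers averaged 4.13 ± 0.24 for Mars2 and male pools of obese fathers 3.72 ± 0.14, a difference of 0.41 (SE 0.19, adjusted p = 0.573). Aimp1 averaged 3.41 ± 0.51 in obese-mother males and 4.24 ± 0.92 in obese-father males, a difference of -0.83 (SE 0.43, adjusted p = 0.576), or -0.376 without obese-father array 12. In females, Qars averaged 2.83 ± 0.12 with obese mothers and 3.40 ± 0.91 with obese fathers, a difference of -0.57 (SE 0.29, adjusted p = 0.975), and Sars2 2.81 ± 0.20 with obese mothers and 2.53 ± 0.10 with obese fathers, a difference of 0.29 (SE 0.17, adjusted p = 0.975). Qars read 4.68 on array 22, and its difference was -0.15 without that array. Of the 34 tested members, 1 in males (Mars2) and 0 in females had an unadjusted p under 0.05, beside 8.35% and 3.25% of all genes tested.

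Males were also compared with females of the same parents. With lean parents, Fars2 averaged 3.0 ± 0.36 in males and 2.69 ± 0.22 in females, a difference of 0.31 (SE 0.15, adjusted p = 0.992), and Tars2 averaged 2.74 ± 0.20 in males and 2.51 ± 0.14 in females. Of the mitochondrial genes, 14 of 16 lay above 0 in this comparison, beside 62.6% of all genes tested, and Aimp2 had non-overlapping groups with males higher, beside 1.71% of genes. No member reached an unadjusted p under 0.05 with lean parents (0 of 34, beside 3.37% of genes) or with obese fathers (0 of 34, beside 5.42%). With obese fathers, 2 of 16 mitochondrial genes lay above 0, beside 35.3%, and Lars2 averaged 2.13 ± 0.27 in males and 2.50 ± 0.30 in females, a difference of -0.37 (SE 0.18, adjusted p = 0.843). Qars averaged 2.83 ± 0.24 in males and 3.40 ± 0.91 in females of obese fathers, a difference of -0.57 (SE 0.29, adjusted p = 0.843), or -0.14 without array 22. With obese mothers, Nars2 averaged 2.03 ± 0.40 in males and 2.47 ± 0.33 in females, a difference of -0.44 (SE 0.20, adjusted p = 0.9999). Among the 34 members it alone had an unadjusted p under 0.05 there, beside 1.41% of genes, and Vars2 followed at -0.33 (SE 0.16, adjusted p = 0.9999).

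Whether the effect of a parent differed between the sexes was tested as an interaction, the male effect minus the female effect. The tests for fathers and for mothers share the 8 lean-parent arrays. For obese fathers 15 of 16 mitochondrial genes lay below 0 (median -0.25), beside a median of -0.14 over all genes tested, of which 32.6% lay above 0. Lars2 had the smallest unadjusted p among the members, with an interaction of -0.60 (SE 0.26, adjusted p = 0.654), and Fars2 followed at -0.41 (SE 0.22, adjusted p = 0.654). Lars2 was the only member with an unadjusted p under 0.05, beside 7.54% of all genes tested. For obese mothers 11 of 16 mitochondrial genes lay below 0 (median -0.25), beside 39.4% of genes above 0, and Nars2 stood at -0.54 (SE 0.28, adjusted p = 0.9999) and Tars2 at -0.40 (SE 0.21, adjusted p = 0.9999). No member of the 34 reached an unadjusted p under 0.05 (0 of 34), beside 2.58% of genes.

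Obese-father female array 22 held the highest value of all 24 arrays for 12 of 17 cytosolic genes, for Gars and Kars, and for 2 of 16 mitochondrial genes (Rars2 and Yars2). Of all genes tested, 17.8% were highest there. The mean over the cytosolic enzymes was 4.68 on this array and 3.20 to 3.90 on the other 23. Lars, the leucine enzyme of the complex, stood furthest apart, at 5.97 on array 22 against 2.35 to 4.11 elsewhere. Qars read 4.68 there against 2.40 to 3.40 elsewhere, and Farsb 4.67 against 2.36 to 3.90. The mitochondrial tyrosine enzyme Yars2 read 4.31 against 1.36 to 2.81 elsewhere.

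Not every cytosolic gene took part on array 22. Vars, the valine enzyme, had its lowest value of all 24 arrays there, at 3.66 against 3.83 to 4.54 elsewhere. Cars (4.03), Farsa (2.95), Yars (4.15) and Tarsl2 (1.61) lay inside the range of the other arrays. Farsa and Farsb encode the subunits of 1 enzyme, and on this array the log2 value differed from the mean of the other arrays by -0.03 for Farsa and by 1.80 for Farsb. The lowest values of Mars2 (3.26), Wars2 (2.31), Cars2 (2.19) and Ears2 (2.81) were also on this array. Of the genes with a response element, Gars (6.33), Iars (4.94) and Tars (4.92) were highest there and Yars was not. Of the cytosolic and dual genes whose window lacks the element, Eprs, Farsb, Mars1, Qars, Sars and Kars were highest there as well, and Farsa and Tarsl2 were not. No window was found for Cars, Hars, Lars, Nars, Rars, Vars and Wars, and of these Hars, Lars, Nars, Rars and Wars were highest there. A relation between the element and the values on this array was not tested. Of 22 other genes listed for the amino acid response, 15 were bright enough to be tested, and the list includes the upstream kinase genes Eif2ak1 to Eif2ak4. The mean of the 22 genes was 2.90 on array 22, inside the range of 2.84 to 3.11 on the other arrays. Those genes went both ways there: 2 of the 22 were highest on it, Asns at 4.70 against 4.41 or less elsewhere and Atf4 at 4.90 against 4.70 or less, and 3 were lowest on it, Chac1, Trib3 and Atf3. Trophectoderm markers averaged 5.80 there and 4.00 to 5.64 elsewhere, and inner cell mass markers 5.12 there and 3.57 to 4.74 elsewhere. The means of cumulus and granulosa markers (2.39), of uterine and oviduct markers (2.43) and of sperm markers (2.69) were the lowest of the 24 arrays. The part of these in the member values was not tested.

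Other pools had partial versions of this profile. Obese-mother male array 8 had the second highest values of Gars (5.98), Sars (5.62), Tars (4.08) and Kars (3.91). Obese-father male array 12 had the second highest values of Nars (6.90), Rars (6.82) and Hars (4.97), and the highest of Aimp1 (5.59). Iars had a second probe set, which read 4.58 on array 12 where the one used read 2.99, so the sets disagree about that pool. On array 22 both sets of Iars were high, at 4.94 for the set used and 4.17 for the other.

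**Figure D5:**
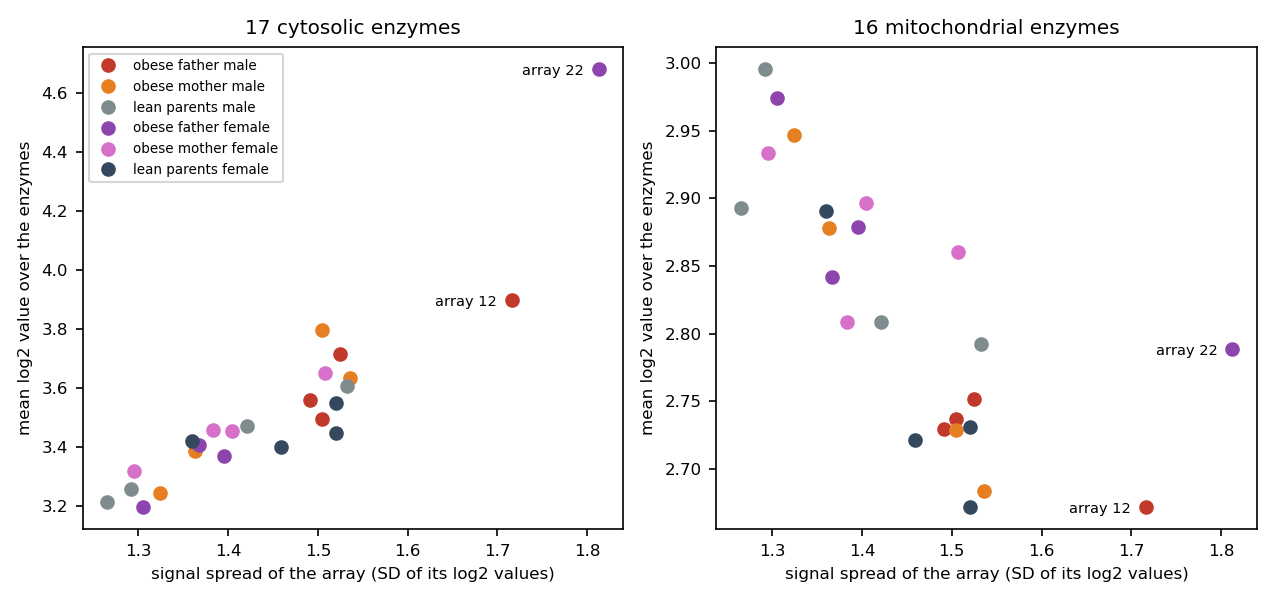
Mean log2 value over the 17 cytosolic enzymes (left) and the 16 mitochondrial enzymes (right) of each array against the array's signal spread, coloured by group. The cytosolic mean is highest on the 2 arrays of widest spread (4.68 on array 22 and 3.90 on array 12), and the mitochondrial mean stays between 2.67 and 3.0 on all arrays.

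The signal spread of an array is computed from the same values as the members, so a relation between them is partly arithmetic, and correlations are given over the 24 arrays as a description with no test. Over all genes tested the median Pearson r with the spread was -0.42, with 3998 positive and 9313 negative. Over the mitochondrial genes it was -0.50 with 14 of 16 negative, on the same side as most genes. Over the cytosolic genes it was 0.57 with 13 of 17 positive, and all 7 complex enzymes were positive (median 0.72). Rars had r = 0.939 and Spearman rho = 0.935, and r was 0.936 within groups and 0.90 once the 2 arrays with the most extreme spread were left out. By r, Nars (0.934), Hars (0.886) and Aimp1 (0.876) came next, with rho at 0.882, 0.822 and 0.844.

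For Iars the relation rested on those 2 arrays, since r was 0.544 with them and 0.268 without, and rho was 0.216. The same held for Tars, with r at 0.567 and 0.213 and rho at 0.189. Vars, which is cytosolic, ran downwards (r = -0.736, rho = -0.669), as did Tarsl2 (r = -0.629, rho = -0.670). The most negative mitochondrial gene was Mars2 (r = -0.770, rho = -0.640, and r = -0.576 without the 2 arrays). The mitochondrial Rars2 (r = 0.579, rho = 0.373) and Yars2 (r = 0.634, rho = 0.401) were positive, and r was 0.266 and 0.106 without the 2 arrays.

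Members also differed in how much pools of the same group varied. The residual SD, the spread left after the 6 group means, had a median of 0.26 over all genes tested. It was 1.03 for Rars (percentile 97.4 of all genes tested), 0.81 for Lars and Nars, 0.70 for Gars and 0.69 for Hars, the histidine enzyme. Among the mitochondrial genes that were tested it lay between 0.19 and 0.29, on both sides of that median, apart from Rars2 at 0.47. At the other end stood Cars with 0.15 (percentile 2.24) and Farsa with 0.18. Standard errors of the differences above follow this order, at 0.67 for Rars and 0.12 for Cars.

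Other genes of the pathway passed the adjusted threshold in neither direction in the 4 comparisons with lean parents (0 of 14 tested transfer RNA processing and export genes, 0 of 15 amino acid response genes, 0 of 4 amidation and formylation genes and 0 of 4 trans-editing genes). In obese-father males, 9 of the 17 transfer RNA processing and export genes lay above 0 (median 0.11), beside 33.3% of all genes tested (median -0.11). Elac2, which trims the 3′ end of transfer RNA precursors, averaged 2.56 ± 0.14 with obese fathers and 2.92 ± 0.16 with lean parents, a difference of -0.35 (adjusted p = 0.316). Tsen15, of the transfer RNA splicing endonuclease, differed by 0.44 (adjusted p = 0.319) and Rpp30, of ribonuclease P, by 1.0 (adjusted p = 0.326). Eef1e1, the third scaffold of the complex, differed by -0.05 (adjusted p = 0.973).

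Of the 22 amino acid response genes, 6 lay above 0 in obese-father males (median -0.13), close to the 33.3% of all genes tested (median -0.11). Asns, which makes asparagine and is a known ATF4 target, averaged 3.61 ± 0.54 with obese fathers and 2.94 ± 0.44 with lean parents, a difference of 0.67 (adjusted p = 0.330), and Ppp1r15a differed by -0.30 (adjusted p = 0.345). In obese-father females 12 of the 22 lay above 0 (median 0.03), beside 54.9% of all genes tested (median 0.02). Asns differed by 0.58 there (adjusted p = 0.9997). For obese mothers the median of the 22 was -0.05 in males, beside -0.01 over all genes tested. In females it was 0.01, beside 0.05 over all genes tested, and Atf4 differed by -0.29 (adjusted p = 0.999). Mitochondrial amidation and formylation genes, which finish some mitochondrial aminoacyl-tRNAs, lay above 0 for 2 of 4 in obese-father males and 0 of 4 in obese-father females, with Gatb at -0.29 (adjusted p = 0.9997) in the females. The trans-editing genes, whose products remove wrongly attached amino acids, lay above 0 for 3 of 4 in both sexes with obese fathers, led in males by Prorsd1 at 0.36 (adjusted p = 0.430). The counts of these 2 short lists stand beside 33.3% of all genes tested in males and 54.9% in females.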

How the data were processed

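RNA of 24 blastocyst pools was lysed, amplified and labelled with NuGEN kits and hybridised to Affymetrix arrays, 1 per pool, per the labels. The deposited values are log2 intensities of 35556 probe sets. The authors made them with RMA in affy, per the submitters' processing notes, with versions not given in the sources used here. After it, arrays still differed in the standard deviation of their values, which can enter any difference.

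Of the probe sets, 21789 carry 1 gene symbol, 1621 several and 12146 none. Only the first kind was used, with the set of highest mean per gene, which gave 19938 genes. The 13311 genes above the median of all values on at least 4 of 24 arrays were tested with limma 3.58.1 (R 4.3.3, lmFit and eBayes), with a mean per group and Benjamini-Hochberg adjustment over all genes tested. The procedure was also run on simulated data with independent noise for each gene and array. Such data lack the differences in signal spread seen here, so that run does not bear on them. Precision is limited by 4 arrays per group.

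Members and lists were chosen with earlier results of these data known, so their medians and counts carry no test. Values per array are given for the 2 cytosolic and 2 mitochondrial members of smallest unadjusted p in each comparison with lean parents, for Gars, Kars, Aimp1 and Aimp2, and, chosen after their values were seen, for members with groups that did not overlap. Other comparisons name the 2 members of smallest p. Members named for array 22, spread and promoter motifs were also chosen after their values were seen. Alternatives changed the filter, probe set, prior, weights, scaling, samples, covariate and threshold.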

Additional observations from a re-analysis of the deposited data

Results flagged for a closer look

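The 17 members whose values per array are named by rule in the comparisons with lean parents were checked in each of the 6 groups. In 6 of these 102 checks, 1 array lay far from the other 3, with a gap to the nearest, as a share of the group's whole range, above Dixon's critical value for 4 arrays. Chance gives such a gap in about 1 of 20 groups. On obese-father female array 22, Kars stood at 4.51 against 2.65 to 2.74 on the other arrays of its group, and Rars at 6.98 against 3.84 to 4.17. Hars2 stood at 2.92 on obese-father female array 24 against 2.48 to 2.54, and at 2.11 on obese-mother male array 7 against 2.49 to 2.57. Qars stood at 2.46 on lean-parent female array 16 against 2.91 to 2.99. Aimp2 stood at 3.89 on lean-parent female array 14, while the other 3 arrays all read 3.84.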

How the results depend on the processing

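No member was called under any alternative that was run, an adjusted p under 0.10 included. Of the alternative values of counts and class medians, 881 were unchanged by the rule used and 19 were not. Member counts were 0 throughout. A class median was unchanged if it moved by less than the SD of its class mean within groups, 0.32 for cytosolic genes. That SD exceeds the main cytosolic medians, so a turned sign could pass, as from 0.20 to -0.09 in obese-father males with the spread covariate. Alternatives of the filter, prior or threshold leave the class medians as they are. For members named one by one, 872 kept their direction and 27 turned it.

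With the signal spread as a covariate, the obese-father male values were -0.0647 for the mitochondrial median, -0.025 for the cytosolic minus mitochondrial median, -0.509 for Kars and -0.00732 for Gars. Under the same covariate, Aimp1 was -0.0545 in obese-mother males and 0.192 in obese-mother females, Gars was 0.114 in obese-mother females, and the mitochondrial median of the obese-father effect, male minus female, was -0.153. With array weights, Kars was -0.0473 in obese-father males and -0.0564 in obese-father females, where the mitochondrial median was 0.17. Under the same weights Aimp2 was 0.024 in obese-mother females, and the female cytosolic median of obese mother against obese father was 0.08. Further quantile normalization put Aimp2 at 0.00369 in obese-mother females. Without the 2 arrays of widest spread (22 and 12), Kars was -0.101 in obese-father males and -0.0991 in obese-father females, where Gars was -0.125 and the mitochondrial median 0.157. The female values of obese mother against obese father were then 0.19 (cytosolic), -0.0652 (mitochondrial) and 0.255 (their difference), and those of males against females of obese fathers 0.284 (cytosolic) and 0.456 (difference from mitochondrial). The cause of these shifts was not tested.

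Leaving out single arrays gave the following ranges. In obese-father males they were -0.205 to -0.0706 for the mitochondrial median and -0.101 to 0.102 for Kars. In obese-father females they were 0.011 to 0.157 for the mitochondrial median, -0.125 to 0.691 for Gars, -0.0991 to 0.522 for Kars and -0.496 to 0.225 for Aimp1. In obese-mother males they were -0.0492 to 0.374 for Aimp1 and -0.0843 to 0.302 for Kars. In obese-mother females they were -0.276 to 0.0608 for Aimp1, -0.0477 to 0.0443 for Aimp2 and -0.0769 to 0.135 for Kars. For obese mother against obese father in females they were -0.4 to 0.19 (cytosolic), -0.0652 to 0.0835 (mitochondrial) and -0.484 to 0.255 (their difference), each with its turned sign without array 22. For males against females of obese fathers they were -0.192 to 0.287 (cytosolic) and -0.14 to 0.461 (difference). The mitochondrial median of the obese-mother effect, male minus female, ran from -0.286 to -0.162.

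No paired analysis was possible because the array numbers of the groups do not repeat. Probes near background can understate differences, and some mitochondrial enzymes, such as Nars2, Hars2 and Lars2, had means below the median of all values. The part of this in the mitochondrial differences was not tested.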
